A study of Mus musculus with 3 samples.

Results

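Keratinocytes with a high level of Krt79, a keratin of the upper hair follicle, were few in the E16.5 skin library and formed a group of 166 cells in the P0 library. They were chosen by their own expression values. A cell was taken if its Krt79 value, the natural log of 1 plus the unique molecular identifiers (UMIs) per 10000 UMIs of the cell, was at least 1.5, which equals 3.48 UMIs per 10000. It also had to hold Krt17 and at least 3 of the 6 epithelial genes Perp, Trp63, Sfn, Cdh1, Dsp and Krt5. It could hold at most 1 of the 3 periderm genes Krt4, Cldn4 and Gabrp, and no Pdgfra, a fibroblast receptor. These cells, called Krt79 cells here, number 171 of the 16235 cells in the table, 5 at E16.5 and 166 at P0. The reference of each stage is the epithelial cells that pass the same epithelial, periderm and Pdgfra conditions with Krt79 at 0, 1064 cells at E16.5 and 1180 at P0.

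The cells came from back skin of male C57BL/6 mice, with 1 droplet 3' library each at E13.5, E16.5 and P0. The skin of several mice was pooled for a library, so no animal can be told apart and no difference has a replicate check. Fetal skin was digested with trypsin and P0 skin with collagenase IV, so stage, library and digestion cannot be told apart. No test was run, and all intervals are 95% limits that cover counting error only. Levels are UMIs of a gene summed over the cells of a group, given as CPM, the counts of a gene per 1000000 counts of the group, with exact Poisson intervals. Ratios are log2 ratios of CPM with 10 added to each CPM, which understates the difference of low genes.

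The hair follicle opens to the surface through the infundibulum, which lies above the junctional zone and the sebaceous gland. Keratinocytes of this upper part line the canal through which hair and sebum leave, and the outermost of them cornify like the epidermis. The sebaceous gland buds from the same region and its cells fill with lipid. Krt79 is known as a keratin of the cells that form the follicle opening and the sebaceous duct, and Krt17 is a keratin of the hair follicle epithelium. Krt79 lies in the type II keratin cluster at chr15:101929332-101940324 of mm10, on the minus strand, between Krt4 and Krt78, and Krt17 lies at chr11:100256217-100261029 in the type I cluster.

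Krt79 itself was counted with 8 UMIs in the E13.5 library, 796 at E16.5 and 12758 at P0. No cell at E13.5 met the rule. At E16.5 the Krt79 cells made up 0.455% of the 1098 epithelial cells (exact binomial interval 0.148% to 1.06%), and at P0 9.89% of 1678 (8.51% to 11.4%). Their share at P0 was thus above that at E16.5 beyond counting error, with 1 library behind each value. The rule set these sizes, and 13.1% of P0 epithelial cells would be taken at a Krt79 threshold of 1 and 5.24% at a threshold of 2.5.

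The Krt79 values of the 166 P0 cells ran from 1.504 over a median of 2.60 to 5.81, which are 3.50, 12.5 and 332 UMIs per 10000. The 3 values just inside the threshold were 1.504, 1.518 and 1.519, and the 3 just outside were 1.469, 1.434 and 1.394. Within 0.25 under the threshold lay 13 epithelial cells with Krt17 and within 0.25 above it lay 30, so the threshold cuts a continuous range. At E16.5 the 3 lowest values inside were 1.512, 2.167 and 3.245, and the 3 highest outside were 1.441, 1.409 and 1.259. Cells that should lack Krt79 also held UMIs of it, and their source was not tested. At P0, 10.6% of 386 fibroblasts and 14.0% of 57 endothelial cells held a Krt79 UMI, at 16.6 and 14.8 CPM, with highest values of 1.245 and 1.258. At E16.5 these shares were 1.30% of 308 and 2.86% of 35. Both highest values lie under the threshold, but these fibroblasts and endothelial cells were chosen to hold no epithelial gene. Cells with Pdgfra at or above the threshold numbered 5 at E16.5 and 23 at P0. The 329 P0 epithelial cells with Krt79 above 0 and under 1.5 were at 98.1 CPM.

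**Figure D1:**
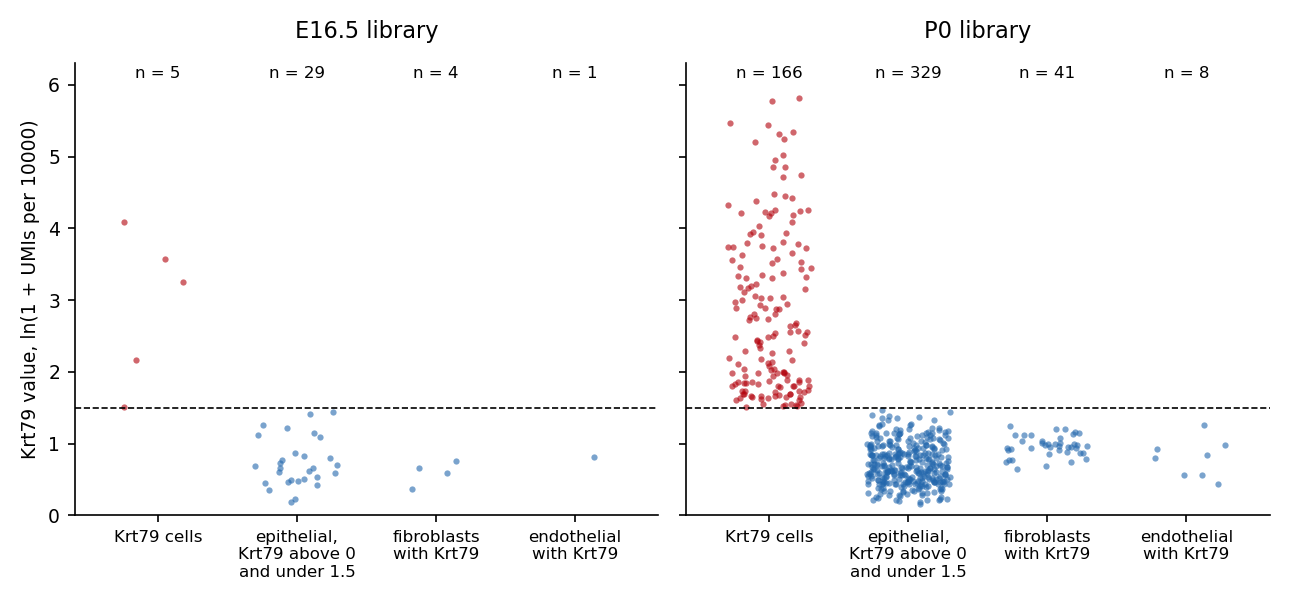
Krt79 value of every cell with a Krt79 UMI, as the natural log of 1 plus UMIs per 10000, in Krt79 cells, other epithelial cells, fibroblasts and endothelial cells of the E16.5 library (left) and the P0 library (right). The dashed line is the threshold of 1.5. The fibroblasts and endothelial cells, chosen to hold no epithelial gene, lie under it in both libraries, with a highest value of 1.258. Cells with Pdgfra at or above the threshold, 5 at E16.5 and 23 at P0, are not shown.

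The Krt79 cells were deeper than the reference, with a median of 18240 UMIs against 13020 at E16.5 and 11370 against 8594 at P0. At P0, 28 of the 166 Krt79 cells, 16.9%, had over 40000 UMIs and carried 49.0% of the group's UMIs, against 15 of 1180 reference cells, 1.27%. Scrublet, a doublet caller, marked 84 cells at E16.5 and 106 at P0, and 0 Krt79 cells. No Krt79 cell shared its barcode with a cell of another library, although 32 to 44 barcodes were shared between pairs of libraries.

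At P0, the genes that stood highest in the Krt79 cells encode proteins of cornifying and gland-forming epithelium. Of 10660 genes with at least 50 UMIs in both groups together, 120 were at least 2-fold higher in the Krt79 cells, 1.13% of the genes compared, and 132 were at least 2-fold lower, 1.24%. The median log2 ratio of all genes was -0.11. Since the rule used 12 genes of these same cells, the ratios of all others are a description of the chosen cells.

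Klk7, a serine protease that cleaves desmosomes of the cornified layer, stood at 111 CPM in the P0 Krt79 cells and 0.619 CPM in the reference, a log2 ratio of 3.51 (interval 3.35 to 3.65). Cst6, a cystatin that inhibits cathepsins of the cornified layer, stood at 231 against 15.6 CPM, a log2 ratio of 3.23 (3.07 to 3.39). Both sat in a minority of the Krt79 cells, since Klk7 was detected in 32 and Cst6 in 44 of 166 cells. The 5 cells with the most UMIs of each gene held 49.5% of the Klk7 UMIs and 84.0% of the Cst6 UMIs. With no periderm gene allowed, which left 120 Krt79 cells, the ratio of Klk7 was 1.90. Krt7, a keratin of glands and ducts on chr15 in the same keratin cluster as Krt79, was more widespread, at 95.1 against 11.8 CPM and in 85 cells.

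Alox12e, an epidermal lipoxygenase, stood at 85.1 against 6.04 CPM. Gjb6, a connexin of keratinocyte gap junctions, stood at 81.4 against 7.43 CPM. Egr2, a zinc finger transcription factor, stood at 68.2 against 4.33 CPM, and Pthlh, a secreted hormone of keratinocytes, at 230.4 against 36.4 CPM. Pthlh was detected in 103 of the 166 cells, which makes it one of the more evenly spread of the leading genes. Psapl1 was at 81.9 against 6.96 CPM, Ly6g6c at 162 against 22.4 and Sdr16c6, a short-chain dehydrogenase, at 80.8 against 7.51. Cyp2g1, a cytochrome P450, was at 45.7 against 0.387 CPM, but 93.1% of its UMIs lay in 5 cells, and its ratio was 0.58 once cells with a UMI of a marker of other cell types, such as Lum, Pecam1, Ptprc or Rgs5, were left out. Cidea, a lipid droplet protein of sebaceous and brown fat cells, was at 51.1 against 1.47 CPM, in 43 cells. None of the 12 genes of highest ratio was above 3 CPM in the fibroblasts.

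**Figure D2:**
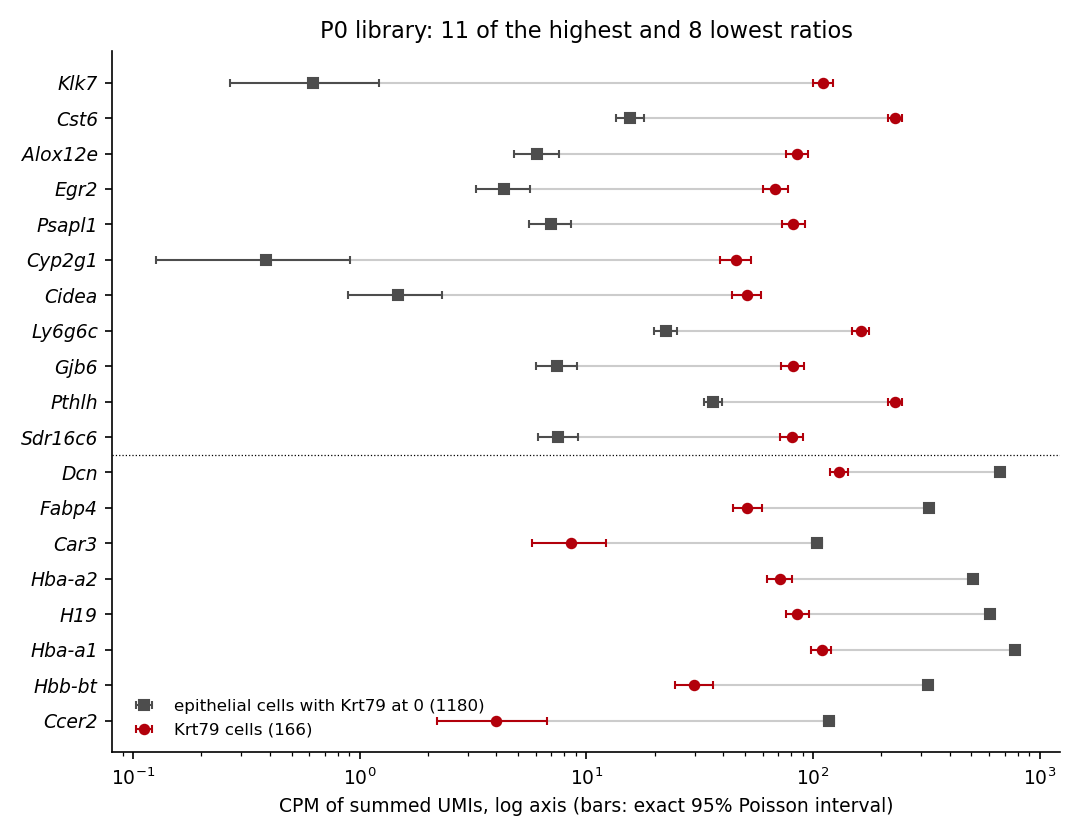
Level of 11 of the 12 genes with the highest and of the 8 with the lowest log2 ratio at P0, as CPM of summed UMIs on a log axis, in the 166 Krt79 cells (circles) and the 1180 epithelial cells with Krt79 at 0 (squares), with exact 95% Poisson intervals. The intervals of the groups do not overlap for any of the 19 genes, which were chosen for the size of their ratio.

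Genes known from the upper follicle and the sebaceous duct were mostly higher. Of 13 listed genes in the table, all 13 had enough UMIs, 8 were at least 2-fold higher and 0 lower at P0, with a median log2 ratio of 1.26 beside -0.11 for all genes. Besides Cst6 and Krt7 these included Nebl, an actin-binding protein, at 59.7 against 7.97 CPM. The secreted inhibitors Fst, which binds activins, and Sostdc1, which binds Bmp proteins, stood at 497 against 149 and 969 against 381 CPM. Lrig1, a receptor inhibitor that marks stem cells of the junctional zone, stood at 89.6 against 31.7 CPM, and Gata6, a transcription factor of the sebaceous duct, at 16.8 against 2.86 CPM. Plet1, at 104 against 65.2 CPM, and Lgr6, at 66.8 against 40.3 CPM, which also mark the upper follicle and isthmus, were higher by less than 2-fold. Krt79 and Krt17 chose the cells, and the list was chosen with earlier results of these data known. The count of 8 of 13 is therefore no independent check of the label. Against epithelial cells with Sox9, Lhx2 and no Krt79, 5 of 12 were at least 2-fold higher and 0 lower, with Lrig1, Gata6 and Sostdc1 at log2 ratios of 0.89, 0.93 and 0.66. With the 28 deepest Krt79 cells left out, or with cells holding a UMI of such a marker of other cell types left out, Lrig1 was under 2-fold.

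Among the 18 listed sebaceous genes, 13 had enough UMIs at P0, 9 were at least 2-fold higher and 0 lower, with a median of 1.27. Acsbg1, a fatty acyl CoA synthetase, stood at 90.2 against 15.6 CPM, Mgst1, a microsomal glutathione transferase, at 219 against 61.9, and Pparg, the master regulator of lipid-forming cells, at 26.0 against 3.33 CPM. Apoe, a lipid carrier protein that is in none of the lists, stood at 4195 against 1210 CPM and was detected in 160 of the 166 cells.

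Keratins and other genes of the epidermal layers were split. Krt14, the basal type I keratin, was lower in the P0 Krt79 cells at 2760 against 4375 CPM, and Krt15, a basal keratin also of follicle stem cells, was at 3307 against 2847 CPM, neither of them 2-fold apart. Krt10 and Krt1, the keratins of the spinous layer, were at 864 against 1265 and 647 against 1171 CPM. Other spinous genes were higher: of 11 compared, 6 were at least 2-fold higher and 0 lower, with Sbsn at 209 against 63.1 CPM, Dmkn at 1855 against 862, Krtdap at 1733 against 845 and Lypd3 at 202 against 87.8. With no periderm gene allowed, Sbsn, Dmkn and Lypd3 were under 2-fold. Of 13 basal layer genes 0 were 2-fold apart in either direction, with a median of -0.05. All 39 keratin genes together made up 1.66% of the UMIs of the Krt79 cells and 1.44% of the reference.

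Transcription factors of keratinocyte layers were compared over 18 genes, of which 5 were at least 2-fold higher and 0 lower. Grhl1, a grainyhead factor of the barrier, stood at 88.2 against 19.8 CPM, Cebpa and Cebpb, which act in keratinocyte and sebocyte maturation, at 292 against 103 and 182 against 54.6, and Zfp750, an epidermal differentiation factor, at 55.1 against 16.4. Follicle factors were split. Of 13 genes of the outer root sheath and bulge precursors, 4 were at least 2-fold higher, namely Barx2 at 411 against 141 CPM, Nfatc1 at 62.8 against 19.4, Runx1 at 86.8 against 32.0 and Sox9 at 343 against 160. Lhx2 was lower, at 147 against 344 CPM, as was Cd34, at 11.7 against 34.6 CPM, which fibroblasts also hold at 214 CPM. Sox9 and Cd34 lay near the 2-fold line, and 9 and 8 of the 17 alternative settings moved them under it. Against epithelial cells with Sox9, Lhx2 and no Krt79, 0 of the 13 were at least 2-fold higher and 3 were lower. The highest log2 ratio there was 0.89, with Runx1 at 0.82 and Sox9 at 0.06, though Sox9 and Lhx2 chose that reference. Jup, the plakoglobin of desmosomes, stood at 398 against 189 CPM and was the single member of 10 desmosome genes past 2-fold, though under it in 8 of the 17 settings.

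Proteases and barrier genes were few among the higher ones. Of 11 kallikreins and inhibitors 4 were higher, Klk7, Cst6, Klk5 at 20.6 against 3.33 CPM and Klk8 at 46.0 against 16.8, and 0 were lower. Defb1, an antimicrobial defensin, at 75.1 against 22.9 CPM, was the 1 of 6 defence genes that was higher. Elovl4, at 48.8 against 17.03 CPM, was the 1 of 13 genes of lipid synthesis. Of 7 tight junction genes and 11 genes of the inner root sheath and hair shaft, 0 were 2-fold apart in either direction. Nor were any of 16 S phase genes, with a median of -0.50, or of 16 G2 and M phase genes, with a median of -0.36.

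Genes of the hair matrix were low in the P0 Krt79 cells. Of 10 matrix and placode genes compared, 0 were at least 2-fold higher and 5 were lower, with a median log2 ratio of -1.03. Lef1, the transcription factor of Wnt signalling, stood at 14.8 against 72.0 CPM, the ligand Bmp2 at 11.1 against 58.7 and Shh, the hedgehog ligand, at 11.4 against 47.8. Of 8 hedgehog genes 0 were higher and 1, Shh, was lower, with the receptor Ptch1 at 128 against 145 CPM. Of 19 genes of the Wnt pathway 0 were higher and 3 lower, with the ligand Wnt3 at 2.85 against 22.4 and the target Sp5 at 6.57 against 28.6 CPM. In the Bmp pathway, 2 of 12 genes were higher, the inhibitors Fst and Sostdc1, and 1, Bmp2, was lower. Of 9 Notch genes 0 were 2-fold apart, and the receptor Notch1 stood at 74.2 against 34.1 CPM. Of 8 EGF receptor genes 1 was higher, Lrig1, and the receptor Erbb3 was at 39.7 against 22.9 CPM.

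The lowest ratios at P0 included genes of blood, fat and connective tissue. They were Ccer2, at 3.996 against 118 CPM, the globins Hbb-bt, Hba-a1 and Hba-a2, with Hba-a1 at 109 against 776 CPM, the growth-linked RNA H19, at 85.3 against 605, Car3, Fabp4 and Dcn, a fibroblast proteoglycan, at 130 against 671. The 10 dermal marker genes summed to 1079 CPM in the Krt79 cells and 3606 in the reference, beside 44860 in fibroblasts, and 6 of the 10 were at least 2-fold lower. The 7 erythroid genes summed to 552 against 2800 CPM, 8 endothelial genes to 27.1 against 145, and 8 immune genes to 130 against 205 CPM. Per cell, the dermal sum ran from 2.07 over a median of 9.34 to 117 UMIs per 10000 in the Krt79 cells and from 1.46 over 13.4 to 1067 in the reference. The erythroid sum per cell had a median of 2.31 and a highest value of 985 in the Krt79 cells, against 2.87 and 5008 in the reference. The endothelial and immune sums had a median of 0 in both groups. Ptprc was at 0 in the Krt79 cells. The part of this foreign RNA in the lower ratios was not tested. Atf3, a stress gene, was at 46.0 against 233 CPM, while 15 dissociation response genes summed to 4460 against 5132 CPM.

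The P0 Krt79 cells also differed from 2 narrower references within the same library. Against 394 epithelial cells with Sox9, Lhx2 and no Krt79, 182 of 9089 genes were at least 2-fold higher, 2.00%, and 74 lower, 0.814%. Fst stood at 497 against 138 CPM in this comparison, Krt7 at 95.05 against 13.54, Krt10 at 864 against 80.1 and Sostdc1 at 969 against 609. Of 8 matrix and placode genes compared, 6 were lower than in the Sox9 and Lhx2 cells, and of 11 spinous genes 10 were higher. Against 115 cells with a Krt10 value of at least 1.5 and no Krt79, 282 of 7348 genes were higher, 3.84%, and 203 lower, 2.76%. Klk7, at 1.45 CPM there, and Alox12e, at 3.62, were lower in the spinous-like cells than in the Krt79 cells, and Krt14 at 7128 and Krt15 at 6197 CPM were higher. Krt10 and Krt1 were at 11200 and 10560 CPM in the spinous-like cells, beside 864 and 647 CPM in the Krt79 cells. Since a high Krt10 value chose the spinous-like cells, its direction was set by that choice. Of 11 spinous genes 7, Krt10 and Krt1 among them, were lower and 1 higher in the Krt79 cells than in the spinous-like cells. Of 15 G2 and M phase genes 13 were higher.

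Within the P0 Krt79 cells, cornification, cell cycle and sebaceous genes each had a different order along the Krt79 level. The cells were parted, after their values were seen, by their Krt79 value into groups of 56, 55 and 55 cells, with values from 1.504 to 2.002, from 2.029 to 3.310 and from 3.313 to 5.809. Median depth was 10210, 11780 and 13570 UMIs. Between the highest and the lowest group, 159 of 4669 genes were at least 2-fold higher, 3.41%, and 93 lower, 1.99%, with a median log2 ratio of -0.05 over all genes.

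Fst was lower in each next group, at 610, 520 and 391 CPM, against 149 in the reference. Sostdc1 did not differ beyond its counting error, at 945, 976 and 978 CPM, and neither did Sox9, at 356, 331 and 345 CPM. Lrig1, at 78.2, 93.96 and 93.3 CPM, and Gata6, at 16.51, 14.2 and 19.9, also had overlapping intervals. These follicle genes were above the reference in all 3 groups.

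Cornification genes had their highest summed level in the group with the most Krt79. Krt10 was at 130 CPM in the lowest and 129 in the middle group and at 2182 in the highest, beside 1265 in the reference. Krt1 followed with 139, 58.2 and 1645 CPM. Cst6 was at 6.61, 46.2 and 590 CPM and Klk7 at 6.61, 4.47 and 300 CPM, with 25 of its 32 positive cells in the highest group. Calm4, an epidermal calmodulin, was at 176, 209 and 1640 CPM, and Elovl4, an enzyme of very long fatty acids of the barrier, at 3.30, 16.4 and 116 CPM. All 10 spinous genes compared were at least 2-fold higher in the highest than in the lowest group, with a median log2 ratio of 2.24. Filaggrin (Flg), which binds keratin in the granular layer, was at 73.4 CPM in the highest group, from 4 cells, and at 0 UMIs in both others. Sprr1a, a cornified envelope protein, was at 140 CPM in the highest group, in 13 cells, and Casp14, a caspase of cornification, at 59.0 CPM in 19 cells. The kallikreins Klk5 and Klk8, which lie near Klk7 on chr7, were also highest there, at 41.5 and 96.5 CPM against 8.81 and 23.1 in the lowest group.

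Cell cycle genes had the opposite order. Of 15 S phase genes compared, 11 were at least 2-fold lower in the highest than in the lowest Krt79 group and 0 higher, with a median of -1.26, and of 14 G2 and M phase genes 9 were lower. Mcm6, a replication helicase subunit, went from 123 over 76.1 to 23.9 CPM, and Top2a, the mitotic topoisomerase, from 181 over 147 to 71.8 CPM. In the lowest group they were close to the reference, which held 103 and 148 CPM.

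Sebaceous genes had their highest level in the middle group. Cidea was at 13.2, 79.8 and 47.8 CPM in the lowest, middle and highest group, Mgst1 at 107, 306 and 207, Acsbg1 at 39.6, 130.5 and 83.7, and Scd1, the stearoyl CoA desaturase of sebocytes, at 12.1, 67.9 and 29.5 CPM. Apoe was at 4093, 5413 and 2968 CPM.

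**Figure D3:**
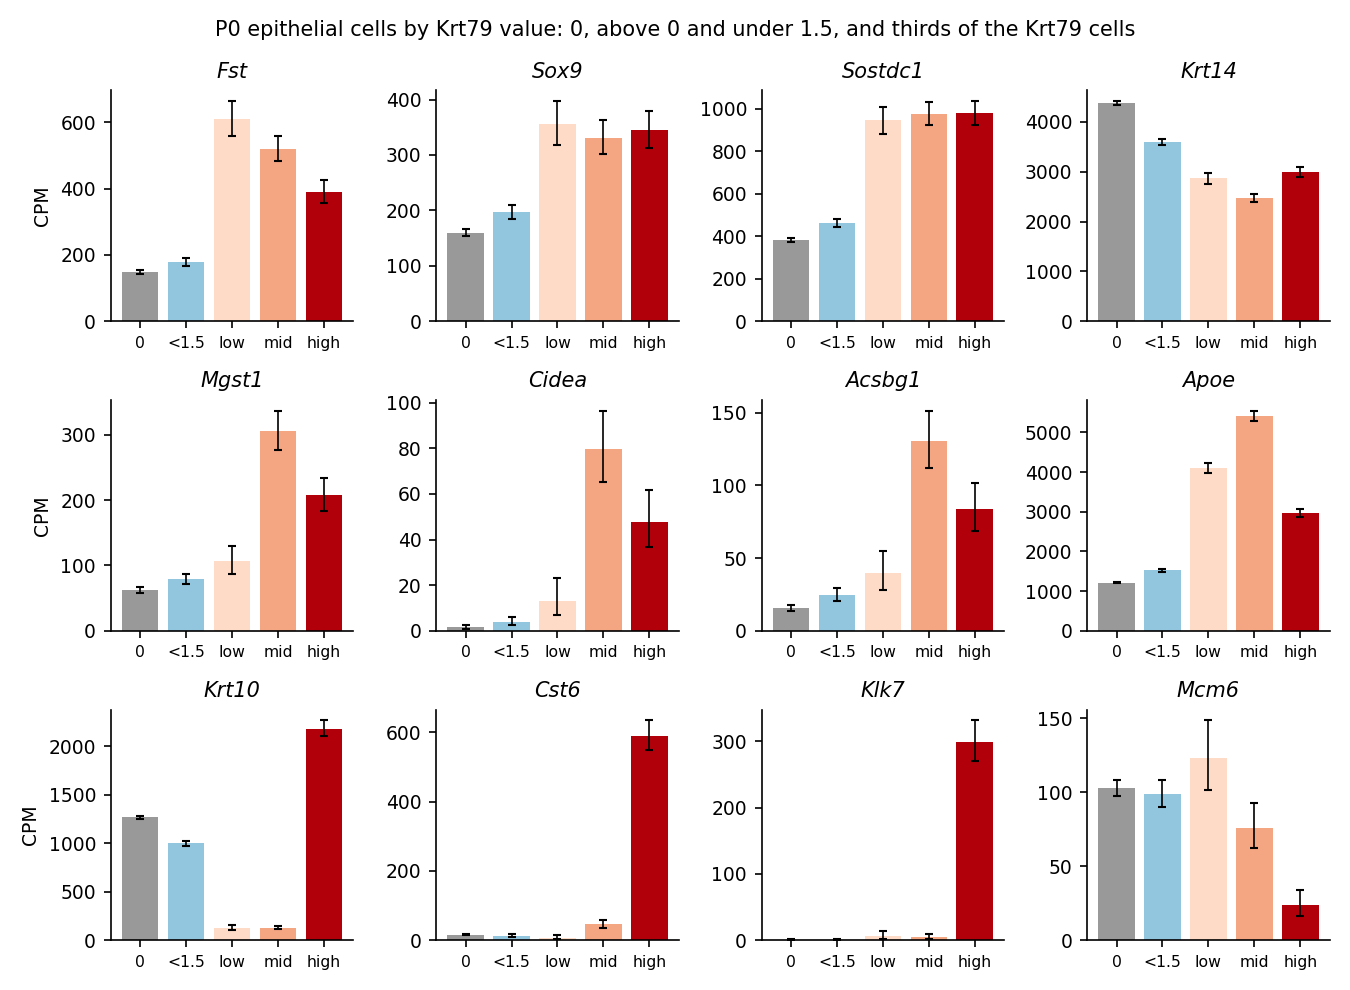
Level of 12 genes in CPM of summed UMIs at P0, with exact 95% Poisson intervals, in epithelial cells with Krt79 at 0 (1180 cells), above 0 and under 1.5 (329), and in the lowest, middle and highest group of the Krt79 cells by Krt79 value (56, 55 and 55). Fst, Sox9 and Sostdc1 stand above the reference in all 3 groups, Cidea, Mgst1 and Acsbg1 peak in the middle group, Krt10, Cst6 and Klk7 are high in the highest group, and Mcm6 is lowest there.

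Sebaceous and granular genes were each high in few of the P0 Krt79 cells. The summed sebaceous list ran from a median of 3.47 to a highest value of 134 UMIs per 10000, and 24 of the 166 cells held at least 10 per 10000. The granular and cornified list had a median of 0 and a highest value of 132, and 6 cells held at least 10 per 10000. No cell held at least 10 of both, but this rests on the limit of 10. The 6 granular cells held 2.53, 2.25, 9.997, 9.80, 8.74 and 8.64 sebaceous UMIs per 10000, so 4 of them lay just under it and above the median of 3.47. The 20 cells highest in the sebaceous list and the 20 highest in the granular list shared 2 cells. By this choice, the 20 sebaceous cells had Cidea at 453 CPM, Scd1 at 319, Soat1 at 216, Pparg at 172, Elovl3 at 166 and Far2 at 159 CPM, beside 8.25, 10.99, 2.75, 11.3, 0 and 0.344 CPM in the 128 cells that were in neither set. Genes outside that list also differed: Apoe was at 17400 CPM in the 20 sebaceous cells, 3664 in the 20 granular cells and 2932 in the rest, Cebpa at 787, 549 and 218, and Elovl6 at 275, 10.5 and 5.15 CPM. The 20 granular cells had a median Krt79 value of 4.22 against 2.59 and 2.46, held Krt10 at 8412 CPM against 65.6 and 207, and Fst at 185 CPM against 356 and 546.

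**Figure D4:**
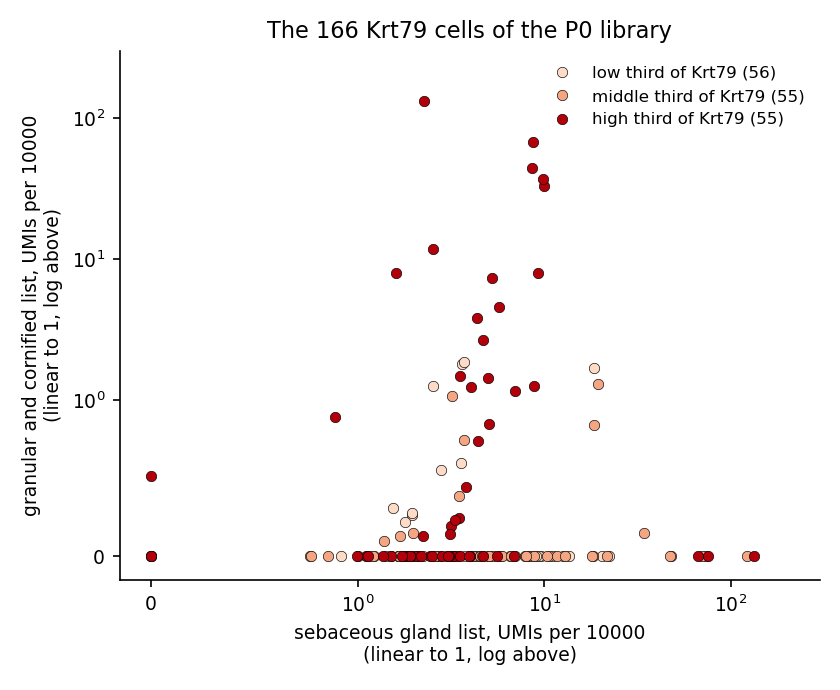
UMIs per 10000 of the 18 listed sebaceous gland genes (horizontal) and of the 13 granular and cornified genes in the table (vertical) in each of the 166 P0 Krt79 cells, on axes linear to 1 and logarithmic above, coloured by the group of Krt79 value. The cells highest in the sebaceous list, up to 134 per 10000, lie at or near 0 in the granular list, while 4 of the 6 cells with at least 10 granular UMIs per 10000 lie between 8.64 and 9.997 in the sebaceous list.

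RNA of other cell types was also held by few Krt79 cells at P0. A single cell carried 409 of the 457 immune UMIs, and the middle group's Cd74 level of 253 CPM, against 3.30 and 3.19 CPM in the others, was not set apart from that cell. Pigment cell and Schwann cell genes had 699 UMIs, with at least 5 in 9 cells, and summed to 532, 134 and 28.7 CPM over the Krt79 groups. Likewise 1 cell held 1096 of the 1934 erythroid UMIs. Without the 10 cells that held at least 5 UMIs of the immune or of the pigment and Schwann cell list, the ratio of Klk7 was 3.69 and that of Fst 1.80, as large as with them.

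The 5 Krt79 cells of E16.5 held 57766, 22206, 18240, 11319 and 9050 UMIs, and the first of them gave 48.7% of the group's 118581 UMIs. A single UMI equals 8.43 CPM in this group. Its Krt79 counts in that order were 200, 131, 45, 4 and 7 UMIs, or 34.6, 59.0, 24.7, 3.53 and 7.74 per 10000. Of 11166 genes compared, 859 were at least 2-fold higher than in the reference, 7.69%, and 1344 lower, 12%, with a median of -0.14. The interval left out 0 for 685 of the 859 and for 365 of the 1344, so most of the lower calls are within counting error.

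Alcam, an adhesion molecule, had the highest ratio at E16.5, with 166, 54, 34, 2 and 3 UMIs in the 5 cells, 2184 CPM against 70.8 in the reference and a log2 ratio of 4.76 (4.57 to 4.95). Casz1, a zinc finger transcription factor, had 40, 9, 10, 1 and 0 UMIs, 506 against 17.8 CPM. Krt7 had 7, 18, 9, 0 and 0 UMIs, 287 against 6.45 CPM. Sox9, the factor of follicle progenitors, had 42, 10, 6, 1 and 3 UMIs, 523 against 26.1 CPM, and Pthlh had 8, 8, 4, 12 and 12 UMIs, 371 against 15.9 CPM. The first 3 cells carried most UMIs of Alcam, Casz1, Krt7 and Sox9, while all 5 carried Pthlh. Per 10000 UMIs, Sox9 was at 3.289 in the third cell and 3.315 in the fifth, and Alcam at 18.64 and 3.315.

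Nebl, Ank, Tnik, Runx1, Pvrl4 and Slc39a8 were also among the 12 highest, with log2 ratios from 3.35 to 3.76. Nebl, Tnik, Pvrl4 and Slc39a8 were found in the first 3 cells alone. Notch1, with 52, 6, 10, 0 and 0 UMIs, and Lhx2, with 28, 9, 3, 0 and 0, had the same spread. The same 3 cells held 1, 2 and 1 UMIs of the periderm gene Cldn4, the other 2 none. In the 2 cells without Cldn4, Krt7, Nebl, Notch1 and Lhx2 were at 0 UMIs, which allows up to 147 CPM in these 20369 UMIs, so a difference from the reference was not detectable there. Runx1, Barx2 and Sostdc1 were in all 5 cells, with Sostdc1 at 46, 39, 64, 5 and 25 UMIs, 1510 against 262 CPM. Krt15 was likewise in all 5, at 3036 against 1827 CPM, whereas Krt14 was at 801 against 3573, Krt10 at 143 against 548 and Krt1 at 118 against 512 CPM.

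**Figure D5:**
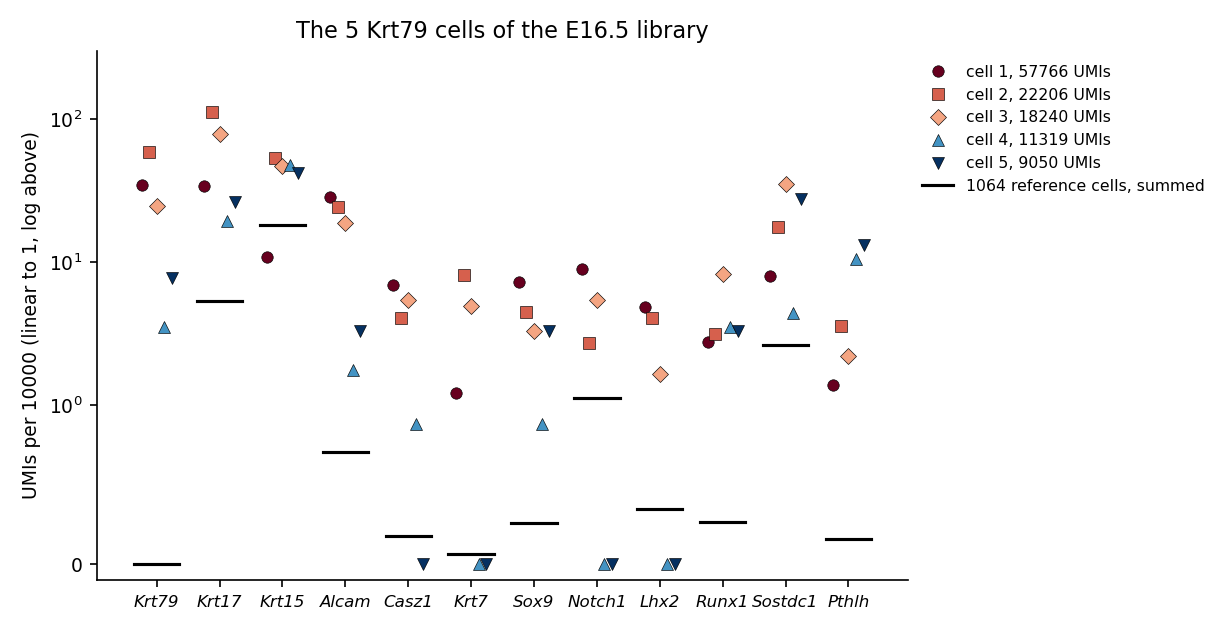
UMIs per 10000 of 12 genes in each of the 5 E16.5 Krt79 cells, on an axis linear to 1 and logarithmic above, with the level of the 1064 reference cells as a black line. Notch1, Krt7 and Lhx2 are at 0 in the 2 cells with the fewest UMIs, whereas Krt15, Runx1 and Sostdc1 were detected in all 5.

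Hedgehog genes were higher at E16.5, with 4 of 7 compared at least 2-fold higher and 0 lower, among them the receptor Ptch1, with 23, 6, 6, 1 and 1 UMIs at 312 against 79.1 CPM, and the effector Gli1, at 101 against 21.5. Both were under 2-fold in the 2 cells without Cldn4, and Ptch1 was also under it in the 1 cell without a UMI of a marker of other cell types. Shh itself had 6 UMIs, all in the deepest cell. Of 16 transcription factors 10 were higher and 0 lower, of 9 desmosome genes 7 and 0, and of 10 Notch genes 5 and 2. Over all genes, 7.69% were higher and 12% lower. The interval lay below 0 for 0 of the Notch genes, 3 of which had 0 UMIs, so both lower calls are within counting error. Nrarp, Zfp750 and Ppl were found in the first 3 cells alone, and Jup, Grhl1 and Cebpb in all 5. Of 11 upper follicle genes compared, 6 were higher and 2 lower, with a median of 1.05. Lrig1 was at 75.9 against 31.4 CPM from 9 UMIs and Cst6 at 42.2 against 10.2 CPM from 5. Fst, with 0, 0, 0, 2 and 5 UMIs, was at 59.0 against 161 CPM, but its ratio was 1.59 at a Krt79 threshold of 1, with 12 cells. Klk7 was at 0 UMIs, which allows up to 25.3 CPM in so small a group. Of 9 sebaceous genes compared 0 were 2-fold apart in either direction. Of 16 G2 and M phase genes 14 were at least 2-fold lower and 0 higher, with a median of -1.66. The 16 genes had 18, 4, 3, 29 and 3 UMIs in the 5 cells, so the fourth cell, at 2562 CPM, lay above the 1722 CPM of the reference and the other 4 lay below it. Cdk1, the mitotic kinase, was at 0 UMIs against 121 CPM. The other genes of lowest ratio, Gng11, Ebf1, Lyz2, Cd74, Cdh5, Serpinb10 and Ccl21a, had 0 or 1 UMI in the Krt79 cells, and Lyz2, Cd74 and Cdh5 are genes of immune and endothelial cells. The 8 immune genes were at 0 in the Krt79 cells against a sum of 391 CPM in the reference, where the median per cell was also 0. Dermal genes summed to 1653 against 5441 CPM. Their part in the lower ratios was not tested.

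Between the stages, 58 of 10257 genes compared at both were at least 2-fold higher than the reference of their own library at both. That is 6.97% of the 832 higher at E16.5, beside 88 of all 10257 genes higher at P0 (1.13% of the 10660 compared at P0). It is 65.9% of the 88 higher at P0, beside 832 of all 10257 higher at E16.5 (7.69% of the 11166 compared at E16.5). Lower at both were 94 genes, 7.29% of the 1289 lower at E16.5 and 74.0% of the 127 lower at P0. Of all genes compared, 12% were lower at E16.5 and 1.24% at P0. The 58 genes include Sox9, Krt7, Nebl, Runx1, Alcam, Pthlh, Barx2, Sostdc1, Lrig1, Cst6, Cebpa and Grhl1. Of these, Krt7, Nebl and Cst6 were at 0 UMIs in the 2 E16.5 cells without Cldn4, where their difference was not detectable. The Krt79 level of the groups was 3264 CPM at E16.5 and 2978 at P0, and Krt15 stood at 3036 and 3307 CPM.

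In a direct comparison of the Krt79 cells, 633 of 6402 genes were at least 2-fold higher at P0, 9.89%, and 691 lower, 10.8%. The interval left out 0 for 213 of the 633 and for 612 of the 691, so most of the higher calls are within counting error. Apoe had the highest ratio, at 4195 CPM at P0 and 143 at E16.5, a log2 ratio of 4.78 (4.13 to 5.49), beside 2.14 in the reference cells of the same libraries. Cdk1, Tmem45a, Klk7, Cd74 and Pmel were at 0 UMIs at E16.5, and Anxa8 and Bex1 at 1 UMI. Anxa8, an annexin of stratified epithelium, was at 195 CPM at P0, and Fst at 497 against 59.0 CPM, with a log2 ratio of 2.88 (1.94 to 3.91) beside -0.11 in the reference. The E16.5 level of Fst rested on 7 UMIs. At a Krt79 threshold of 1, the 12 cells of E16.5 held 133 Fst UMIs among 262964, so this low level depends on the threshold. Krt10 was at 864 against 143 CPM and Krt1 at 647 against 118, with log2 ratios of 2.51 and 2.36 beside 1.19 and 1.18 in the reference. The P0 values lay mostly in the group with the most Krt79. The lowest and middle Krt79 groups held Krt10 at 130 and 129 CPM and Krt1 at 139 and 58.2 CPM. Within the highest group the level was uneven. The 20 cells highest in the granular list, 15 of them in that group, held Krt10 at 8412 and Krt1 at 6545 CPM. The 128 cells in neither set of 20, with 37 in that group, held 207 and 131 CPM.

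H19 was lowest at P0, at 85.3 against 1585 CPM, a log2 ratio of -4.06 beside -0.97 in the reference. Tnik, Trps1, Ndufa4l2, Mdk and Scd2 followed, with Tnik at 16.3 against 211 CPM and Mdk, a growth factor, at 23.98 against 236. Gm42418, an RNA that overlaps ribosomal RNA, had log2 ratios of -2.91 in the Krt79 cells and -3.41 in the reference. Notch1 was at 74.2 CPM at P0 and 573 at E16.5, a log2 ratio of -2.79 beside -1.48 in the reference. Alcam was at 387 against 2184 CPM, a log2 ratio of -2.47 beside 1.29 in the reference. All of these differences set 166 cells against 5.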

How the data were processed

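Single-cell 3' RNA-seq (10x v2) of mouse back skin was deposited as 1 library a stage (E13.5, E16.5, P0). The authors aligned reads to mm10 and counted UMIs with Cell Ranger 2.2.0 (submitters' processing notes), dropped cells under 1750 genes and genes found in under 3 cells, and then deposited expression on the natural log scale, as ln(1 + UMIs per 10000). All 48197283 values above 0 came back as whole UMIs to within 0.001, which recovered the counts of 19165 genes and 16235 cells. The Krt79 cells held 118581 UMIs at E16.5 and 3503300 at P0, the reference cells 16124747 and 12921019. Intervals cover counting error only, as the cells of 1 library do not replicate a stage.

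UMIs were summed per group and scaled to CPM, with the 12 rule genes left out of comparisons over genes. Genes with at least 50 UMIs in both groups together were compared, and 2-fold is a log2 ratio of 1 or -1 with 10 added to each CPM. The interval of a ratio combines the exact Poisson limits of both groups. Genes were named by rule: the 12 highest and 8 lowest ratios of each stage, the 8 highest and 8 lowest between stages, keratins with at least 50 CPM and members of 31 gene lists, without mitochondrial, ribosomal protein and sex-linked marker genes. List members beyond the 4 largest ratios of a list, the groups by Krt79 value and the sets of 20 cells were chosen after their values were seen. A few genes that the rule names are not reported here. The members and all lists were chosen with earlier results of these data known. Fibroblasts here are cells with Pdgfra, a Col1a1 value above 2 and no epithelial gene, and endothelial cells those with Pecam1 and Kdr and no epithelial gene.

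Doublets were called with Scrublet (scanpy 1.11.5, Python 3.11.15, expected rate 0.06) and kept. The method was tested on simulated Poisson counts of whole groups. These lack the uneven spread of UMIs between cells, so the simulation does not cover it. Gene positions are from GENCODE vM21 (GRCm38, the build mm10), which held 412 of 414 genes looked up. The 15 alternatives and 2 added after seeing the data are given in the closing section.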

Additional observations from a re-analysis of the deposited data

Results flagged for a closer look

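Between the stages, 7 genes were at least 2-fold apart from the reference in opposite directions. Lhx2 had a log2 ratio of 2.96 at E16.5 and -1.17 at P0, Shh 1.31 and -1.43, and Cldn10 1.34 and -1.14. Fst had -1.31 at E16.5 and 1.67 at P0, Krt77 -1.80 and 1.40, Bex1 -1.94 and 1.06, and Tmem45a -1.66 and 1.37. The difference between the stages was not tested, since each rests on 1 library. At E16.5 these ratios came from 0 to 40 UMIs in 5 cells, with Krt77 and Tmem45a at 0, Bex1 at 1, Shh at 6 and Fst and Cldn10 at 7 UMIs. The reference levels of Krt77 and Tmem45a at E16.5, 24.9 and 21.5 CPM, lie under the 25.3 CPM that 0 UMIs allow in the Krt79 cells, so their difference there was not detectable at this depth. The opposite directions of Fst and Shh depend on the setting. Fst at E16.5 had a ratio of 1.59 at a Krt79 threshold of 1, with 12 cells, and of 0.36 to 1.55 under 3 other settings. The 6 UMIs of Shh all lay in the deepest cell, and under the 4 settings that removed or thinned this cell Shh was at 0 UMIs and its difference was not detectable.

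The E13.5 library, which holds no Krt79 cell, held 8 Krt79 UMIs in 7 cells, above the 3 that a count of 0 allows.

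At or above the Krt79 threshold, 5 cells at E16.5 and 39 at P0 were left out by the other conditions. All 5 at E16.5 held Pdgfra. At P0, 23 of the 39 held Pdgfra, 15 had fewer than 3 of the epithelial genes and 10 had no Krt17.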

How the results depend on the processing

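Results are limited by depth at E16.5, where 5 cells carry every value, and by 1 library per stage. No paired analysis was possible because the stages share only the replicate number 1 and no result comes from a test. The causes of the changes were not tested. At E16.5, each negative ratio given below is of a gene at 0 UMIs whose reference level lies under the 3 counts that 0 allows (147 CPM in 2 cells, 331 in 1 cell, 176 when thinned and 49.3 without cells over 40000 UMIs), so its sign is set by the 10 added to each CPM and shows no turned direction. The same holds for Flg at P0, at 0 UMIs with a limit of 1.51 CPM.

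With a Krt79 threshold of 1, the share was 1.09% at E16.5 and 13.1% at P0, while 425 genes were higher and 621 lower at E16.5, with 339 higher at P0 than at E16.5 and Fst at 1.59 at E16.5. With a threshold of 2.5 the P0 share was 5.24% and 213 genes were lower at P0. With 4 of 6 epithelial genes 76 were lower at P0. With no periderm gene allowed, which left 2 and 120 cells, 1608 genes were higher and 4216 lower at E16.5, the P0 share was 7.75%, and 1539 genes were higher between stages. The E16.5 ratios were then -0.61 for Krt7, -0.65 for Nebl, -1.05 for Tnik, -0.71 for Pvrl4, -0.87 for Slc39a8, 1.10 for Fst, -0.84 for Cst6, -2.23 for Lhx2, -1.33 for Shh and -3.46 for Notch1, and Flg at P0 was -0.05. Leaving out cells with a UMI of a marker of other cell types, such as Lum, Pecam1, Ptprc or Rgs5, which left 1 and 53 cells, gave 2534 lower at E16.5 and 189 lower between stages, with -1.56 for Casz1, -1.21 for Krt7, -1.14 for Nebl, -0.61 for Ank, -1.14 for Tnik, -1.39 for Pvrl4, -0.96 for Slc39a8, 1.55 for Fst, -1.61 for Cst6, -2.73 for Lhx2, -1.39 for Shh, -3.63 for Notch1 and -2.62 for Cebpa at E16.5 and 0.48 for Cd34 at P0.

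Thinned to 3400 UMIs a cell, 3579 genes were lower at E16.5, 332 higher and 114 lower between stages, with Fst at 0.36 and Shh at -1.38 at E16.5. With 50 added to each CPM, the higher and lower counts were 214 and 141 at E16.5, 30 and 28 at P0, and 83 and 180 between stages. With 2 added they were 1419 and 3215 at E16.5 and 215 and 539 at P0. With at least 200 UMIs a gene, 527 were higher at E16.5, and 206 higher and 138 lower between stages. With every gene that had a UMI, 1398 were lower between stages. Chosen after seeing the data, leaving out cells over 40000 UMIs gave 2021 lower at E16.5, a P0 share of 8.36%, 450 lower between stages and Shh at -1.29 at E16.5. Of the 63 genes named and past 2-fold at P0, 30 were still past it with 50 added, 49 without cells holding a periderm gene, 52 without those holding a UMI of another cell type, and 54 to 63 under the other settings.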

Other observations

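Among the cells above the Krt79 threshold that the rule left out at P0, the highest Krt79 value was 4.644, in the 1 cell with at least 2 periderm genes, which had 19716 UMIs and a Krt79 level of 10300 CPM. The median value of the 39 cells was 2.24, and 15 of them had a Col1a1 value of at least 2.

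Other genes at least 2-fold higher than the reference at both stages included the connexin Gjb2, which forms gap junctions of keratinocytes, Hk2, a hexokinase, and Sult2b1, a cholesterol sulfotransferase. These were picked from the 58 genes after their values were seen, and no test was run on them.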
